A study of Drosophila melanogaster with 32 samples.

Results

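The genes described here are the nuclear genes of Drosophila melanogaster that encode respiratory chain proteins. They are the genes of the count table whose FlyBase symbol begins with ND-, Sdh, UQCR-, COX or ATPsyn, which are 85 of 16257 genes. By complex, 38 belong to complex I, 8 to complex II, 9 to complex III, 15 to complex IV and 15 to complex V, the ATP synthase. By kind, 63 carry the plain name of a subunit, 21 carry a name ending in L or in L and a digit (called paralog-type genes here, since each is named after a subunit gene), and 1, Sdhaf3, is an assembly factor of complex II. All but 1 of the 85 had a count in some library, the exception being the paralog-type gene ATPsynCF6L.

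Poly-A RNA was sequenced from GFP-marked cells that were sorted out of dissociated larval ovaries. Somatic cells came from bab:GAL4>UAS hpo RNAi, UAS GFP animals and from bab:GAL4>UAS yki RNAi, UAS GFP animals at 72 h (early), 96 h (mid) and 120 h (late) after egg laying. Germ line cells came from nos:GAL4>UAS hpo RNAi, UAS GFP animals and from nos:GAL4>UAS yki RNAi, UAS GFP animals at 96 h and 120 h. Per the labels, the late animals were white pupae and the younger ones larvae in their last instar.

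There were 3 libraries in each of 10 groups, 18 somatic and 12 germ line. The hairpins are directed against hippo (hpo), the kinase that restrains growth in the Hippo pathway, and against yorkie (yki), the transcription factor that this kinase holds back. Every cell carried a GAL4 driver, a hairpin and GFP, and the series design adds a UAS-Dcr-2 transgene to the nos:GAL4 stock. No untreated cells are used here, so an RNAi difference is between hpo RNAi and yki RNAi. GFP under bab:GAL4 marks somatic cells of the ovary without separating their types. Nothing in the labels says whether the replicates shared animals, so p-values measure the spread between these libraries.

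The respiratory chain sits in the inner mitochondrial membrane. Complex I takes electrons from NADH and complex II takes them from succinate, both pass them to ubiquinone, and complexes III and IV carry them on to oxygen by way of cytochrome c. Complexes I, III and IV pump protons, and complex V uses the proton gradient to make ATP. A few core proteins of complexes I, III, IV and V are encoded in mitochondrial DNA, and complex II has none of these. In Drosophila, many subunits have a second gene copy whose expression is best known from the testis.

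Library totals ran from 15196773 to 75088445 counts, and the 85 genes together took 0.583% to 1.22% of a library. Counts of hpo were lower under hpo RNAi than under yki RNAi in each of the 5 pairs of groups, with log2 fold changes between -2.91 and -2.44. Counts of yki were lower under yki RNAi in the early and mid soma (log2 1.82 and 1.27, hpo RNAi over yki RNAi) but not significantly so in germ line cells (0.63 mid, 0.17 late) or at the late somatic stage (0.99). The 8 somatic gonad markers in the table summed to 2154 to 6005 CPM (counts scaled to a library total of 1000000) in somatic libraries and to 99.2 to 286 CPM in germ line libraries. The 8 germ line markers summed to 6.14 to 75.9 CPM in somatic libraries and to 5702 to 7127 CPM in germ line libraries. Fat body markers reached at most 8.76 CPM in any library.

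Between genes, levels were compared as CPM per kilobase of exon, the mean over all 30 libraries, and a complex by the median over its subunits. Complex V had the highest such median at 146, complexes III and IV had medians of 111 and 105, complex II had 72.5 and complex I had 51.4. Within complex V, ATPsynbeta (FBgn0010217, chromosome 4, 1031484 to 1034917 in BDGP6.54), the catalytic beta subunit, stood at 832, and ATPsynC, the subunit of the rotating ring, at 667. At the other end ATPsyndelta, a subunit of the central stalk, stood at 16.7 with 3817 bp of exon. By CPM alone (63.8) it lay above ATPsynCF6 (50.2), ATPsynE (37.4) and ATPsynF (26.8). ATPsynbeta overlaps CG11076 on the other strand, and its estimated counts were not whole in 18 of 30 libraries, so part of its counts could belong to that gene or to another with matching sequence.

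In complex I the range ran from 0.438 for ND-B8 to 219 for ND-49 (FBgn0039909, chromosome 4, 568296 to 571554), a core subunit that shapes the ubiquinone site. In complex II it ran from 44.6 for the membrane anchor SdhC to 137 for the iron-sulfur subunit SdhB. UQCR-6.4 (8.59) and the core protein UQCR-C1 (309) bounded complex III, and COX5B (36.2) and COX6B (317) bounded complex IV. Estimated counts were not whole in 29 of 30 libraries for COX6B, 26 for SdhB and 22 for UQCR-6.4. COX6B also overlaps CG18809 on the same strand. ND-B8 overlaps Gs1l on the other strand and had no count in the mid soma, so its values were not read as a level of the subunit.

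**Figure D1:**
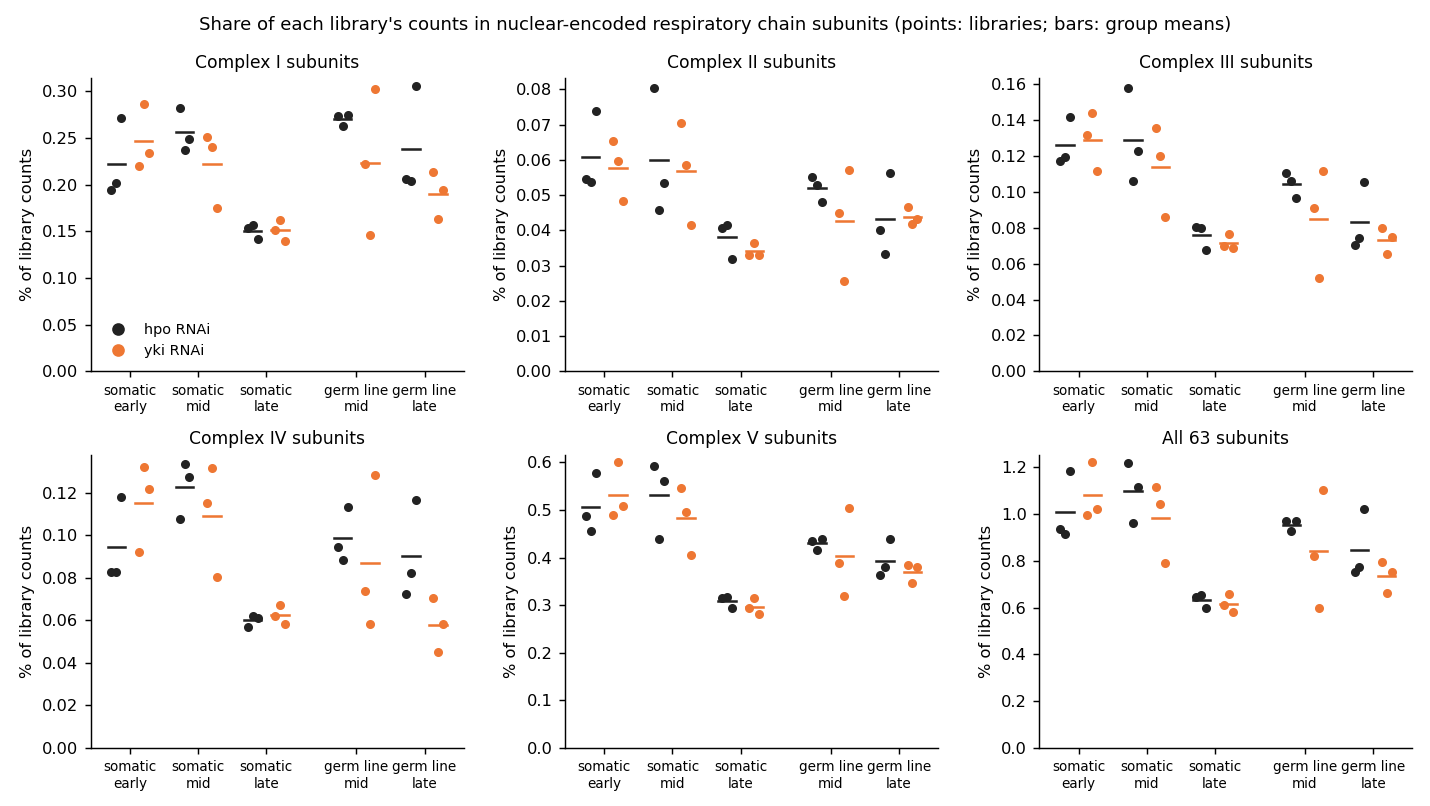
Share of each library's counts (%, y axis) taken by the subunits of complexes I to V and by all 63 subunits, by cell type and stage, with hpo RNAi in black left of yki RNAi in orange. Points are libraries and bars are means of 3. The late somatic libraries lie together at 0.582% to 0.657% for all 63 subunits, below every mid somatic library.

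As a share of all counts, the 63 subunits stood highest in the early and mid soma. Under hpo RNAi they took 1.01% ± 0.150, 1.10% ± 0.131 and 0.633% ± 0.0317 of somatic counts at the early, mid and late stage (SD, n = 3 each). Under yki RNAi the somatic values were 1.08% ± 0.123, 0.985% ± 0.173 and 0.616% ± 0.0381 in the same order. In germ line cells the late and mid shares were 0.849% ± 0.150 and 0.955% ± 0.0251 with the hpo hairpin, against 0.736% ± 0.0667 and 0.841% ± 0.252 with the yki hairpin (SD, n = 3 each). The late somatic libraries lay below all mid somatic libraries, whereas the late and mid germ line libraries overlapped.

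The first comparison asked how the transcripts changed between the middle and the end of terminal filament formation in somatic cells, averaged over the RNAi conditions. Transcripts of all 5 complexes fell together. Of 69 genes tested, 49 were lower in the late soma and 1 was higher, at an adjusted p under 0.05 from edgeR's quasi-likelihood test with Benjamini-Hochberg adjustment over all genes, the meaning of a call throughout. Among all 10672 genes tested, 27.2% were called and 11.9% were called lower. All 62 subunits tested had a negative log2 fold change, with a median of -0.79, against 0.05 for all genes tested, and 48 were called. In such sorted pools of cells, fewer cells of a type that expresses a gene and less RNA per cell cannot be told apart.

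In complex IV, cytochrome c oxidase, 8 of the 8 subunits picked out by symbol were called lower, with a median log2 fold change of -0.96. The nuclear subunits of this complex surround a catalytic core made in the mitochondrion. COX8 (FBgn0263911, 3L, 21538859 to 21539447), a small membrane-spanning subunit, had the largest fall of the 62 subunits. In the late soma the hpo RNAi libraries had 11.5, 14.1 and 13.5 CPM, and the yki RNAi libraries 14.3, 13.8 and 13.2 CPM. In the mid soma the hpo RNAi libraries had 34.1, 78.7 and 56.4 CPM, and the yki RNAi libraries 39.0, 58.1 and 53.2 CPM. Late and mid libraries did not overlap, and the late ones were close to each other. The log2 fold change was -2.0 (SE 0.27, adjusted p = 1.5e-05).

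COX7B, another small subunit of the complex, had a late somatic median of 33.6 CPM (20.9 to 37.0), against a mid somatic median of 75.4 CPM (42.8 to 135). Its log2 fold change was -1.34 (SE 0.34, adjusted p = 0.0062), and its late libraries all lay below its mid libraries. COX7A fell by 1.29 on the log2 scale. The larger subunits COX5A, COX4 and COX5B fell by 1.05, 0.87 and 0.86, and COX6B, which faces the intermembrane space, fell by 0.51.

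In complex V 11 of the 11 subunits picked out by symbol were called lower, with a median of -0.88. The catalytic ATPsynbeta had a late somatic median of 1371 CPM (1269 to 1512), against 2293 CPM (1908 to 2737) in the mid soma, with no overlap. Its log2 fold change was -0.69 (SE 0.12, adjusted p = 0.00020). The stalk subunit ATPsyngamma fell by 0.84 and the ring subunit ATPsynC fell by 0.60. ATPsynE and ATPsynG, small subunits of the membrane part, fell by 1.21 and 1.13.

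In complex II, which oxidises succinate and is also an enzyme of the citric acid cycle, 4 of 4 subunits were called lower, with a median of -0.86. The membrane anchors SdhD and SdhC fell by 1.17 and 1.06, and the iron-sulfur subunit SdhB by 0.65. The flavoprotein SdhA, which holds the succinate site, had a late somatic median of 178 CPM (164 to 206) and a mid somatic median of 242 CPM (216 to 356), a log2 fold change of -0.49 (SE 0.11, adjusted p = 0.0021). Its late libraries all lay below its mid libraries.

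In complex III, 4 of 6 subunits were called lower, with a median of -0.64. UQCR-Q, a small subunit, fell by 1.33 and UQCR-14 by 1.08, and the large core proteins UQCR-C2 and UQCR-C1 fell by 0.71 and 0.57. UQCR-11 (log2 -0.47, adjusted p = 0.32) and UQCR-6.4 (log2 -0.48, adjusted p = 0.58) were not called.

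Complex I was called in part, 21 of 33 subunits tested, with a median of -0.72. Its 7 nuclear core subunits hold the flavin and the iron-sulfur clusters. Those that accept electrons from NADH were all called, ND-24 with a log2 fold change of -0.82, ND-51 with -0.55 and ND-75 with -0.44. Of the core subunits that lead to ubiquinone, ND-30 (-0.74) and ND-20 (-0.56) were called. ND-23 (-0.36, adjusted p = 0.053) and ND-49 (-0.29, adjusted p = 0.054) missed the threshold. Among the accessory subunits the largest log2 fold change was that of ND-B12, -1.44 (SE 0.38, adjusted p = 0.0078), with 26.5 CPM (22.3 to 30.8) in the late soma and 70.2 CPM (20.2 to 131) in the mid soma. Its late and mid libraries overlapped, since 1 mid library under yki RNAi lay at 20.2 CPM.

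**Figure D2:**
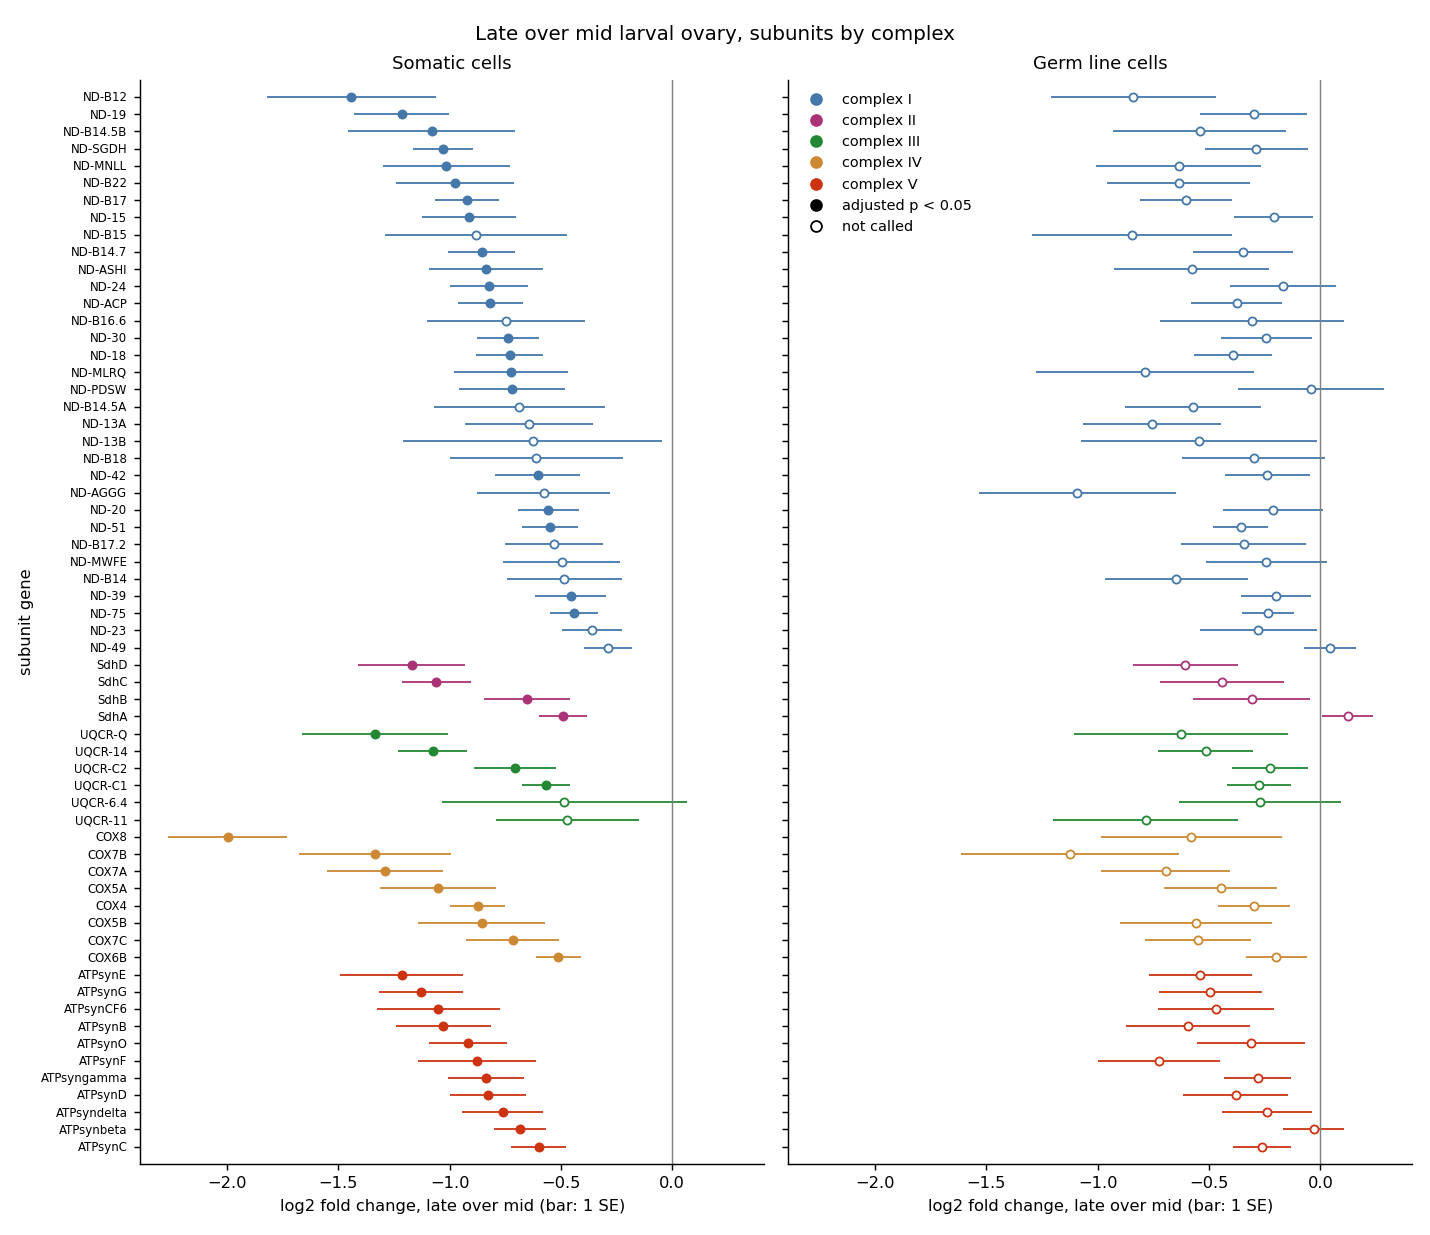
Log2 fold change, late over mid, of the subunits in somatic cells (left, 62 tested) and germ line cells (right, ND-B8 not drawn), by complex and ordered by the somatic value. Bars are 1 SE, and filled points have an adjusted p under 0.05. All somatic points lie below 0 and 48 are filled, while no germ line point is filled.

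The fall was seen under each hairpin. Within hpo RNAi alone 31 genes were called lower (6.38% of all genes tested) and within yki RNAi alone 22 were (6.53%), and 21 were in both, which is 67.7% of the first list and 95.5% of the second. The subunit median was -0.87 with the hpo hairpin and -0.76 with the yki hairpin.

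Neighbouring parts of mitochondrial metabolism were read from lists of genes outside the symbol rule. Of 9 tested subunits with other names, 7 were lower in the late soma, with a median of -0.97. Among them were the electron carrier Cyt-c-p (42.5 CPM late, 111 CPM mid, log2 -1.37) and Cyt-c1 of complex III (172 CPM late, 283 CPM mid, log2 -0.71). Of the 13 subunits encoded in mitochondrial DNA, 10 were lower, with a median of -0.98. Of 11 citric acid cycle enzymes, 9 were lower, with a smaller median of -0.41, and malate dehydrogenase Mdh2 (log2 -0.66) and citrate synthase kdn (-0.65) fell most among them.

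Of 11 glycolytic enzymes tested, 2 were higher and 1 was lower in the late soma, with a median of 0.17, so the share called was near the 27.2% of all genes. Phosphofructokinase, Pfk, had 129 CPM in the late soma and 74.6 CPM in the mid soma (log2 0.80, adjusted p = 0.00017), Tpi had a log2 fold change of 0.69, and the hexokinase Hex-A had -0.53. Of 9 regulators of mitochondrial biogenesis, 5 were lower and 1, ewg, was higher. The lower ones included srl, the fly homologue of the PGC-1 coactivators, with 145 CPM in the late soma, against 205 CPM in the mid soma (log2 -0.50).

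Other properties of the libraries moved with stage. Genes with under 1000 bp of exon took 6.14% to 6.59% of counts in the late soma, against 7.85% to 11.2% in the mid soma, and the subunits are short, with a median exon length of 853 bp, against 1853 bp for the genes tested. With each library's trend over exon length removed, 45 of the 49 genes were still called lower, the subunit median was -0.60, and COX6B, COX7C, ND-39 and SdhB were no longer called. The 4 hemocyte markers summed to 883 to 1764 CPM in the late soma, against 34.9 to 156 CPM in the mid soma. Nearly all of it was Pxn, a peroxidase of the extracellular matrix (1305 CPM late, 81.9 CPM mid), while Hml averaged 0.886 CPM late and 0.237 CPM mid, and NimC1, eater or both stood at 0 in each of these 4 groups. Muscle markers summed to 14.0 to 111 CPM late and 7.77 to 15.7 CPM mid. The part of these lists in the fall was not tested.

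Between the early and the mid stage the somatic subunits gave no call. None of 69 genes was called in edgeR, where 3.50% of all genes were, and DESeq2 called 1, COX7A (log2 0.77). In edgeR 5 of the 69 had an unadjusted p under 0.05, against 1870 of 10672 over all genes tested. The median over the subunits was 0.06, mid over early, and 0.02 over all genes tested. At the same step 4 of the 13 mitochondrially encoded subunits were called higher, with a median of 0.87.

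In germ line cells the late over mid comparison gave no call. None of 72 genes tested passed in edgeR, where 0.149% of all genes did, or in DESeq2. In edgeR 15 of the 72 had an unadjusted p under 0.05, against 939 of 10717 over all genes tested. The median over 63 subunits was -0.38, late over mid, against -0.02 over all genes, and 60 of the 63 were negative. Among the exceptions were SdhA (log2 0.12, SE 0.11) and ND-49 (0.04, SE 0.12). With the trend over exon length removed the subunit median was -0.20, and it was -0.16 without yki RNAi mid replicate 4 and -0.58 without hpo RNAi late replicate 4.

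Whether the stage change differed between somatic and germ line cells was tested directly, as the late over mid log2 fold change in the soma minus that in the germ line. Of 74 genes, 3 were called, against 9.79% of all genes tested. The difference for SdhA was -0.65 (SE 0.15, adjusted p = 0.0050). Late and mid somatic medians were 178 and 242 CPM, and late and mid germ line medians were 229 CPM (178 to 254) and 214 CPM (159 to 227). Germ line libraries of the stages overlapped and somatic ones did not.

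The difference for ATPsynbeta was -0.70 (SE 0.17, adjusted p = 0.0085), with late and mid germ line medians of 2060 CPM (1875 to 2472) and 2093 CPM (1541 to 2623), again overlapping. Both genes were called in each of 8 fits that kept all libraries. The other call was the paralog-type COX7AL (5.60, adjusted p = 0.030). Its fitted difference depends on the prior count, because it had no count in the mid soma, and the call was lost in 11 of 30 alternatives. The median difference over the subunits was -0.41, against 0.07 over all genes. COX8 had the most negative difference of all subunits, -1.46 (SE 0.51, adjusted p = 0.071), and was not called, although it was in 4 of the 8 fits that kept all libraries (a stricter filter, the replicate number as a term, the length trend removed, and DESeq2). The number of calls was sensitive to processing, with 11 when the replicate number was a term and 16 with the length trend removed.

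The comparison of somatic with germ line cells, averaged over the RNAi conditions, depends on scale. TMM scaling factors had group medians of 0.856 to 0.945 for somatic libraries and 1.17 to 1.21 for germ line libraries, so a gene with equal CPM in both has a positive log2 fold change, soma over germ line. At the mid stage 38 of 74 genes were higher in the soma and 5 were lower, where 54.1% of all genes were called, 25.1% higher and 29.0% lower. The 5 were ND-49, ND-B8 and the paralog-type ND-51L2, COX7CL and COX7AL. All but ND-49 had low counts, at most 2.39 CPM pooled over the mid germ line. The median over the subunits was 0.76, against -0.17 over all genes tested. Scaled by library totals alone, 20 genes were higher, all of them among the 38, and 8 were lower, with medians of 0.37 and -0.56. The change of scale moved the subunits together with all genes.

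In the mid soma 7 of 8 subunits of complex IV and 10 of 11 of complex V were called higher, with medians of 0.99 and 0.92, and 3 of 4 in complex II and 4 of 6 in complex III. SdhA averaged 261 ± 51.2 CPM in the mid soma and 202 ± 26.9 CPM in the mid germ line (SD, n = 6 each), with a log2 fold change of 0.76 that was also called on library totals (0.37). ATPsynbeta averaged 2253 ± 297 CPM in the mid soma and 2092 ± 363 CPM in the mid germ line, and its log2 fold change of 0.50 was not called on library totals (0.11). UQCR-C1 had a somatic median of 609 CPM (491 to 778) and a germ line median of 444 CPM (255 to 501), a log2 fold change of 1.00 (SE 0.12), with 1 somatic library, at 491 CPM, below the highest germ line library, at 501 CPM.

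In complex I a smaller part of the subunits was called than in the other complexes. The lower calls were ND-49 and ND-B8, and ND-B8 had no count in the mid soma, so its call was not read as a level of the subunit. Of 34 subunits, 14 were higher in the mid soma and 2 were lower, with a median of 0.49. The accessory subunits ND-PDSW, ND-AGGG and ND-MLRQ had the 3 largest positive log2 fold changes of these genes, 1.97 (SE 0.31), 1.87 (SE 0.41) and 1.79 (SE 0.42). ND-MLRQ is grouped with complex I by name, although its mammalian counterpart has since been placed in complex IV. ND-AGGG had a median of 61.9 CPM (50.4 to 88.8) in the mid soma and 18.1 CPM (6.74 to 45.7) in the mid germ line, with no overlap.

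The core subunits of complex I went both ways. ND-23 (log2 1.44, SE 0.21) and ND-20 (0.68, SE 0.19) were higher in the mid soma, while ND-49 was lower (-0.39, SE 0.10, adjusted p = 0.0030). In the mid soma ND-49 had 288, 330 and 252 CPM in the hpo RNAi libraries, and 244, 235 and 280 CPM in those of yki RNAi. In the mid germ line it had 563, 505 and 466 CPM in the hpo RNAi libraries, and 484, 316 and 487 CPM in those of yki RNAi. The cell types overlapped by 1 germ line library, at 316 CPM, and the other 5 lay above every somatic library.

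At the late stage the subunit medians lay closer to 0. Of 74 genes, 14 were higher in the soma and 7 were lower, where 51.9% of all genes were called, 25.4% higher and 26.5% lower. The subunit median was 0.24, against -0.12 over all genes. On library totals 5 were higher and 20 lower, with a subunit median of -0.17 and an all-gene median of -0.52, so the direction of the late median turns with the scale. All 14 late higher calls were also among the 38 mid ones (36.8% of those).

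The 14 genes higher in the late soma were led by ND-AGGG (2.34, SE 0.42), UQCR-11 (2.06, SE 0.40) and ND-MLRQ (1.81, SE 0.42). All 3 are small subunits, and their medians were 39.7, 18.9 and 42.0 CPM in the late soma, against 10.2, 6.86 and 13.4 CPM in the late germ line. ND-23 (1.31), COX7B (1.36), ND-PDSW (1.25), UQCR-C1 (0.67) and ATPsynG (0.87) were among the rest. On library totals, 5 of the 14 kept their call.

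Of the 7 lower calls, 4 were core subunits of complex I and 3 were paralog-type genes. Of the 7 core subunits, 4 were lower in the late soma than in the late germ line, 1 was higher (ND-23) and ND-30 and ND-20 were not called, while none of the 27 accessory subunits was lower. On library totals the core subunit ND-30 and 5 accessory subunits (ND-15, ND-18, ND-42, ND-B14.7 and ND-B18) were called lower as well. ND-49 had a late somatic median of 217 CPM (194 to 244) and a late germ line median of 481 CPM (413 to 651), with no overlap and a log2 fold change of -0.76 (SE 0.10, adjusted p = 8.5e-07). ND-75, the largest core subunit, had 182 CPM (169 to 208) in the late soma and 329 CPM (295 to 422) in the late germ line, with no overlap and a log2 fold change of -0.48 (SE 0.11, adjusted p = 0.00054).

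The NADH-side subunits ND-24 and ND-51 were also lower in the late soma. The log2 fold change of ND-24 was -0.57 (SE 0.22) with an adjusted p of 0.031, and that of ND-51 was -0.39 (SE 0.13) with an adjusted p of 0.013. The call of ND-24 was lost with the replicate number as a term and in 7 of 12 fits that left out 1 library. ND-49 and ND-75 kept theirs in each of 20 alternatives. Whether the core and accessory subunits of complex I differ as groups was not tested.

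**Figure D3:**
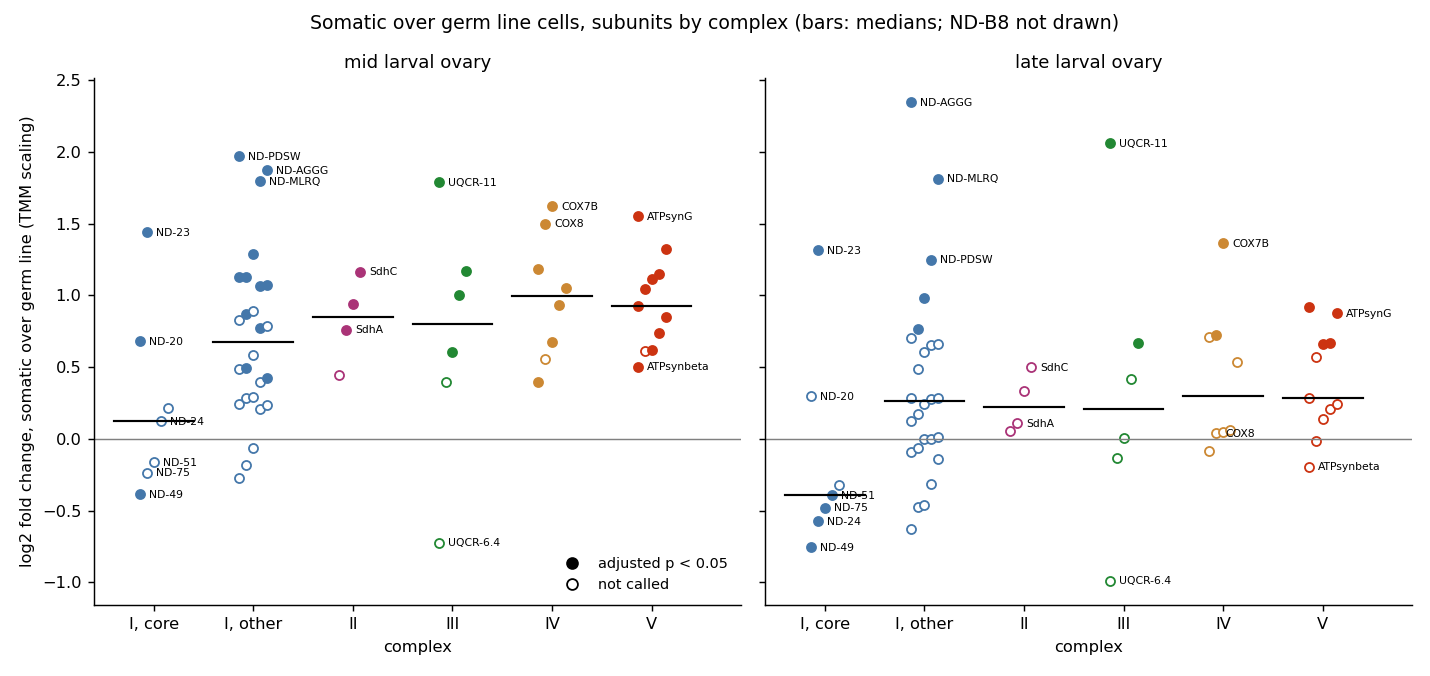
Log2 fold change, soma over germ line, of the subunits at the mid stage (left) and the late stage (right), with the 7 core subunits of complex I apart from its other subunits. Bars are medians and filled points have an adjusted p under 0.05. At the late stage the medians lie nearer to 0 than at the mid stage in every complex but for the complex I core, whose late median is -0.39.

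The lists beside the respiratory chain are read here against the 54.1% of all genes called between the cell types at the mid stage, 25.1% higher and 29.0% lower. Glycolytic enzymes were higher in the soma in 10 of 11 cases, with a median of 1.3, and Ald1 (156 CPM in the soma, 3.32 CPM in the germ line) and Tpi (117 CPM in the soma, 12.4 CPM in the germ line) led them. Of 11 citric acid cycle enzymes, 6 were higher and 1 was lower in the soma, and the share called was not far from that of all genes. Mdh2 (176 CPM in the soma, 24.7 CPM in the germ line) and the aconitase mAcon1 (973 CPM in the soma, 153 CPM in the germ line) were higher and kdn (333 CPM in the soma, 583 CPM in the germ line) was lower. Of the mitochondrially encoded subunits, 11 of 13 were higher in the soma, with a median of 1.29. Of 9 biogenesis regulators 1 was higher and 3 were lower, a share near that of all genes, among them PolG1, the mitochondrial DNA polymerase (59.4 CPM in the soma, 214 CPM in the germ line).

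Between the hairpins, hpo RNAi over yki RNAi, there were few calls among the respiratory chain genes. Early in the soma 1 of 69 genes was called in edgeR, where 2.45% of all genes were. It was ND-B17, an accessory subunit of the membrane arm of complex I, with 80.6, 66.3 and 79.6 CPM in hpo RNAi libraries, against 118, 136 and 149 CPM in those of yki RNAi. The groups did not overlap, and the log2 fold change was -0.85 (SE 0.20, adjusted p = 0.030). The call was lost in 7 of 14 alternatives, 4 of them fits without 1 library, and with the length trend removed the only call was SdhC (0.70). DESeq2 called 3 genes, ND-B17, UQCR-14 (-0.69) and COX8 (-1.18). The subunit median was -0.19, and it was 0.04 without hpo RNAi replicate 1 and -0.54 without hpo RNAi replicate 4.

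COX8 was not called early in the soma in edgeR as fitted here, but was in some alternatives. It had 17, 14.6 and 46.2 CPM in hpo RNAi libraries, against 58.9, 53.1 and 61.9 CPM in those of yki RNAi, with no overlap. Without the hpo RNAi library at 46.2 CPM (replicate 4), COX8 was called in edgeR with a log2 fold change of -1.91 (adjusted p = 0.0020). In that fit 6 respiratory chain genes were called, against 402 over all genes. With the replicate number as a term and all libraries kept, COX8 was also called in edgeR (-1.82, adjusted p = 0.0036). With all libraries kept, the mitochondrially encoded subunits had a median of -1.13 in the early soma, with 0 of 13 called in edgeR. Of these, 11 had an unadjusted p under 0.05, against 2136 of 10672 over all genes tested. Short genes took 6.5% to 10.4% of counts in the early soma under hpo RNAi and 6.85% to 12.1% under yki RNAi.

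At the mid stage of the soma none of 69 genes was called in edgeR or DESeq2 (2.50% of all genes in edgeR), with 3 at an unadjusted p under 0.05. Late in the soma none was called in edgeR (1.03% of all genes), 3 had an unadjusted p under 0.05, and DESeq2 called 1, the low paralog-type COX5BL. In the mid germ line none of 72 was called in either tool (0.103% of all genes in edgeR), with 3 at an unadjusted p under 0.05. In the late germ line none was called in edgeR (0.187% of all genes), 12 had an unadjusted p under 0.05 and DESeq2 called 2, ATPsynG and ND-AGGG. Over all genes tested, 1359 and 615 of 10672 had such an unadjusted p in the mid and late soma. In the mid and late germ line 739 and 822 of 10717 did. The subunit medians, hpo RNAi over yki RNAi, were 0.17, 0.06, 0.32 and 0.40 in these 4 comparisons, and the last was 0.06 with the length trend removed. Single libraries moved each of them. Without yki RNAi replicate 3 the mid and late somatic medians were -0.02 and -0.01. The mid germ line median was 0.03 without yki RNAi replicate 3 and 0.78 without yki RNAi replicate 4, and the late one was 0.10 without hpo RNAi replicate 4.

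ATPsynG, subunit g of the membrane part of ATP synthase, was higher under hpo RNAi without overlap in 4 of the 5 pairs of groups. In the late soma it had 119, 141 and 127 CPM in hpo RNAi libraries, against 92.5, 84.6 and 82.5 CPM in those of yki RNAi. In the late germ line it had 103, 82.1 and 174 CPM in hpo RNAi libraries, against 58.9, 43.0 and 45.5 CPM in those of yki RNAi. The log2 fold changes were 0.13 in the early soma, where the groups overlapped, 0.70 and 0.59 in the mid and late soma, and 0.94 and 1.3 in the mid and late germ line, and none was called as fitted here with edgeR. It was called in the mid soma with the length trend removed (0.65, adjusted p = 0.014), in the late germ line without a filter on low counts (adjusted p = 0.021), and in an edgeR fit of the late somatic libraries alone (0.58, adjusted p = 0.0067), together with ND-B17 and ATPsynbetaL.

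In the late germ line ND-AGGG had 14.5, 22.0 and 39.6 CPM in hpo RNAi libraries, against 5.76, 6.01 and 3.35 CPM in those of yki RNAi. The groups did not overlap, and the log2 fold change was 2.35 (SE 0.65, adjusted p = 0.33 in edgeR and 0.012 in DESeq2). Its estimated counts were not whole in 25 of 30 libraries, so part of its reads were divided between genes. Short genes took 4.76% to 8.48% of counts in the late germ line under hpo RNAi and 3.61% to 5.62% under yki RNAi.

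Tests of whether the RNAi difference itself depends on context gave no calls in edgeR. None of 69 genes had an RNAi difference that varied over the 3 somatic stages (0.600% of all genes did), with 4 at an unadjusted p under 0.05 and none in DESeq2. None of 74 had an RNAi difference that varied between soma and germ line (0.422% of all genes did), with 1 at an unadjusted p under 0.05 and 1 in DESeq2, COX5BL. Over all genes tested, 1095 of 10672 and 1047 of 12089 had such an unadjusted p in these tests. DESeq2 called 224 and 200 of all genes in the same order. The median SE of a log2 fold change between 3 hpo RNAi and 3 yki RNAi libraries over the respiratory chain genes tested was 0.32 to 0.33 for somatic cells and 0.39 for germ line cells.

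The 21 paralog-type genes had low counts. Over the mid and late stages 12 of the 21 had a count in somatic cells, and 20 had one in germ line cells, where most had the higher level. Pooled over the 6 libraries of a cell type and stage, they summed to 4.48, 4.52 and 2.64 CPM in the early, mid and late soma. In the germ line they summed to 10.4 CPM late and 13.1 CPM mid. Over the mid and late stages together 3 of 21 had the higher pooled level in somatic cells and 17 in germ line cells, which is a description and was not tested. The highest was ATPsynepsilonL, the copy of the epsilon subunit of complex V, with 0.714 CPM in the mid soma and 3.43 CPM in the mid germ line. Spermatocyte markers summed to 7.73 to 22.4 CPM in somatic and 27.8 to 52.4 CPM in germ line libraries. Their part in these levels was not tested. Mid somatic libraries had counts for 8447 to 10938 genes, and mid germ line libraries for 9888 to 12098. The part of this in the number of paralog-type genes with a count was not tested.

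COX7AL (FBgn0037579, 3R, 8343669 to 8344310), a copy of COX7A, had the largest bound on its difference between the cell types. In the mid soma it had no count in 6 libraries. In the mid germ line it had 1.41, 1.19 and 3.21 CPM in hpo RNAi libraries, and 2.22, 0.745 and 2.92 CPM in those of yki RNAi. Against a floor of 3 counts over the group, its pooled CPM was at least 189-fold lower in the mid soma than in the mid germ line. It was called (adjusted p = 7.9e-05), but it passed the filter on low counts only through germ line libraries, so the call adds no separate support. The floor takes counts as independent, but low counts also came in clumps, such as 47 counts of COX6AL2 in 1 mid germ line library. Such bounds are therefore nominal. COX7AL was not free of counts later. It had 21 counts in 5 late somatic libraries, against 286 counts in 5 late germ line libraries, and its pooled CPM was 16.2-fold lower in the late soma.

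SdhCL, a copy of the complex II anchor SdhC, had no count in the late soma and 100 counts in the late germ line. By the same nominal floor its CPM was at least 39.7-fold lower in the soma. SdhBL had no count there either and 41 in the late germ line, a CPM nominally at least 16.3-fold lower in the soma. Both were called. COX4L had 0.410 CPM in the mid soma and 2.15 CPM in the mid germ line, ATPsynbetaL had 0.765 CPM in the mid soma and 2.02 CPM in the mid germ line, and neither was called.

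COX5BL, ND-51L1 and UQCR-11L had the higher pooled level in the soma. COX5BL stood at 1.94 CPM in the mid soma and 0.799 CPM in the mid germ line, but single libraries ranged from 0.162 to 5.15 CPM in the mid soma. It overlaps Trmt6 on the other strand, and its estimated counts were not whole in 11 libraries, with a count in 19. Part of its counts could thus belong to that gene or to another with matching sequence. COX5BL fell to 0.187 CPM in the late soma, 1 of the 49 lower calls there. ND-51L2 was the higher call of that comparison, with 89 counts in 6 late somatic libraries, against 12 counts in 1 mid somatic library, and the call was not stable. It was lost in 11 of 12 fits that left out 1 library, the exception being the fit without the library with the 12 counts (yki RNAi replicate 2), and also with no filter, a stricter filter, the replicate number as a term, DESeq2 and either RNAi condition alone.

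All 21 paralog-type genes stood below the subunit gene they are named after or copy. Per kilobase of exon in the germ line, over the mid and late stages, ATPsynepsilonL reached 7.98% of sun, the gene of the epsilon subunit, COX5BL 4.55% of COX5B, UQCR-6.4L 2.76% of UQCR-6.4, COX7AL 1.37% of COX7A, SdhCL 1.09% of SdhC and COX4L 1.00% of COX4. The other 15 stood below 1% of theirs.

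A copy outside the symbol rule had a higher level. Cyt-c1L (FBgn0039651), a copy of the complex III subunit Cyt-c1, had a median of 1.06 CPM (0 to 4.60) in the mid soma and 100.1 CPM (52.0 to 136) in the mid germ line. The late values were 0.395 CPM (0.136 to 1.17) in the soma and 91.5 CPM (62.2 to 134) in the germ line. No library of one cell type reached the other, and the log2 fold changes, soma over germ line, were -6.32 (SE 0.72) at the mid stage and -7.30 (SE 0.76) at the late stage. Per kilobase of exon, Cyt-c1L stood at 0.761 in somatic and 74.5 in germ line cells, whereas Cyt-c1 stood at 150 in somatic and 100.2 in germ line cells. Cyt-c-d, a cytochrome c gene known from the testis, averaged 0.0378 CPM in the late soma and 1.06 CPM in the late germ line.

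**Figure D4:**
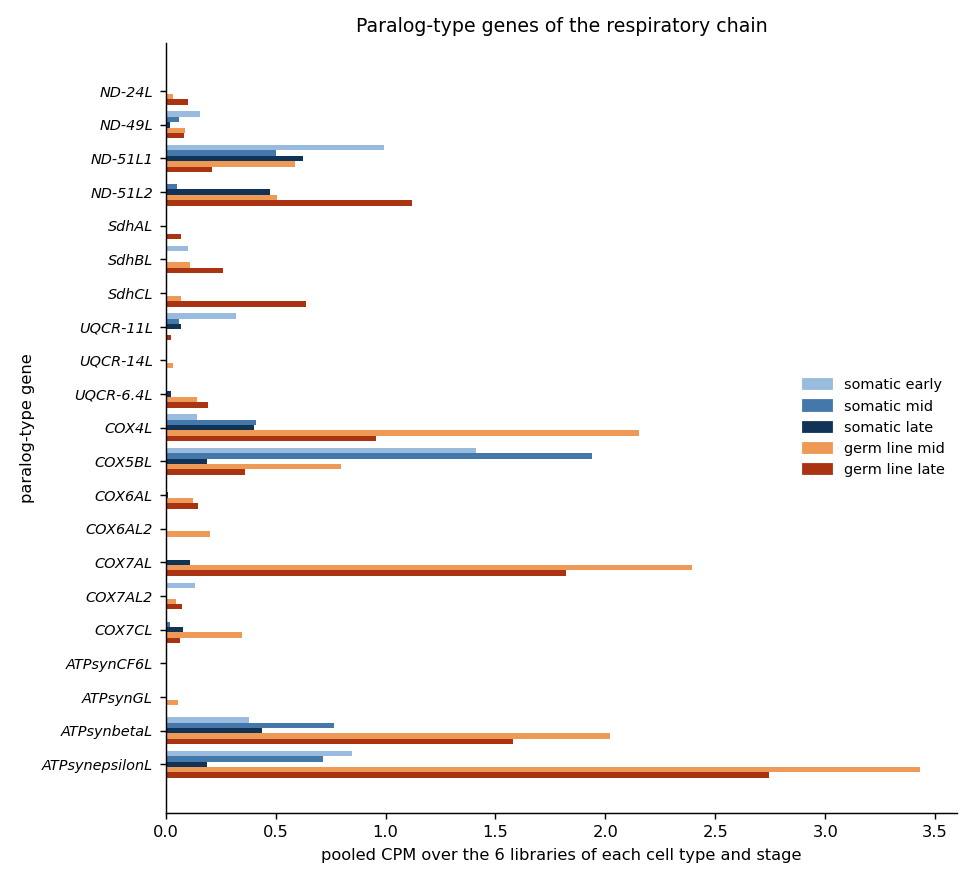
Pooled CPM of the 21 paralog-type genes over the 6 libraries of each cell type and stage, somatic in blue above germ line in orange and red. ATPsynepsilonL, COX7AL, COX4L and ATPsynbetaL have the longest mid germ line bars, at 2.02 to 3.43 CPM, and COX5BL has the longest somatic bar, 1.94 CPM.

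As a description over 30 libraries, which share cell type, stage and length composition within groups, the median Pearson r between log2(CPM + 1) of a subunit and the mean of the other subunits was 0.76. The highest was 0.96 for ND-B22, an accessory subunit of complex I. The lowest were -0.34 for ND-B8, -0.05 for ND-49, 0.07 for UQCR-6.4 and 0.15 for ND-75. ND-49 and ND-75 are among the 4 core subunits that were lower in the late soma than in the late germ line. The mean of the 13 mitochondrially encoded subunits had an r of 0.30 with the mean of the nuclear ones. Of 12015 genes outside the symbol rule, roh (r = 0.96), NP15.6 (r = 0.95) and baf (r = 0.94) followed the subunit mean most closely. Respiratory chain subunits with other names are among these 12015 genes.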

How the data were processed

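Poly-A RNA of sorted larval ovary cells was read as 50 bp single ends. The values are expected counts per gene, as the authors deposited them, and the submitters' processing notes list bcl2fastq 2.2, RSEM 1.3.3, STAR 2.7.6a and DESeq2 1.26.0; the genome build is not given in the sources used here. Of the table's columns, 30 matched samples of this series and 18 did not and were not used, and 2 early germ line samples were not analysed here. 86.5% of the values were whole (tolerance 1e-06), and expected counts were rounded before testing.

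The respiratory chain genes and every gene list were chosen with earlier results of these data known. ND-MNLL was kept as a subunit, since its last letters name residues. Genes named are, per comparison, the 3 called genes of largest log2 fold change in each direction with at least 10 CPM, the called interactions, the paralog-type genes, the highest and lowest gene of each complex, and core subunits; UQCR-Q, UQCR-14, COX7A, COX6B, ATPsynC, ATPsynE, ATPsynG and other genes beyond these were chosen after their values were seen.

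Counts were fitted with edgeR 4.0.16 (quasi-likelihood test, TMM scaling, filterByExpr with a minimum count of 10, group means; R 4.3.3, limma 3.58.1) in 3 fits, of 18 somatic libraries (10672 genes), 12 germ line libraries (10717) and all 30 (12089). p-values were adjusted by Benjamini-Hochberg over all genes of a fit, with a threshold of 0.05. Stage contrasts average the RNAi conditions, and cell type contrasts average them at one stage. CPM is per library total without TMM. Exon lengths are unions of exons in BDGP6.54, which matched 16206 genes and left 51 unmatched. On simulated counts edgeR recovered 97.5% of 200 genes changed by 2 on the log2 scale in the early somatic RNAi contrast of 10358 genes. It also made 8 false calls. The changed genes had at least 10 CPM, and smaller changes, such as the RNAi medians here, were not simulated. Alternatives were DESeq2 1.42.0, RLE size factors, no filter, a stricter filter, the replicate number as a block, removal of each library's trend over exon length, a fit of only the compared libraries, leaving out each library and, added after the data were seen, library totals and each RNAi condition alone. With counts taken as independent, the counting precision at these library totals is finer than the spread between replicates. Within the mid soma and within the mid germ line, larger libraries tended to have more genes with a count. Between somatic stages the number of genes with a count did not follow the totals. It was 8607 to 9243 in early, 8447 to 10938 in mid and 10541 to 11801 in late somatic libraries. Totals were 15334185 to 61547936 in the mid soma and 17769618 to 51341464 in the late soma. The part of this in counts of 0, as for COX7AL and ND-51L2 in the mid soma, was not tested. Replicate numbers were not taken as pairs, since the labels do not tie them and no hpo RNAi and yki RNAi pair of groups had every same-numbered correlation over 0.1.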

Additional observations from a re-analysis of the deposited data

Results flagged for a closer look

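For 3 of 74 genes the late over mid change differed between somatic and germ line cells by a direct test of that difference. The test was edgeR's with Benjamini-Hochberg adjustment over 12089 genes, of which 9.79% were called. For SdhA the somatic log2 fold change minus the germ line one was -0.65, and for ATPsynbeta it was -0.70. Both genes were lower in all 6 late somatic libraries than in any mid somatic library, while the germ line libraries of the stages overlapped. For COX7AL the fitted difference was 5.60, with 21 counts in the late soma and none in the mid soma, against 286 counts in the late germ line and 557 in the mid germ line. Mid somatic libraries had counts for 8447 to 10938 genes and late somatic libraries for 10541 to 11801. The part of this in the COX7AL difference was not tested.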

How the results depend on the processing

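The late somatic fall gave 41 to 51 calls when 1 library was left out, 31 under hpo RNAi alone and 22 under yki RNAi alone. Over all genes tested the counts were 2385 to 3058, 1687 and 1407 in the same order. Soma over germ line gave 39 to 51 calls without 1 library at the mid stage, 27 under hpo RNAi alone and 28 on library totals. Over all genes tested the mid counts were 6136 to 6427, 4586 and 7012. At the late stage there were 19 to 26 calls, 8 under hpo RNAi alone and 38 with only the compared libraries. Over all genes tested the late counts were 5741 to 5963, 4438 and 7219. The test of whether the stage change differs between cell types gave 6 calls with a stricter filter, 16 with the length trend removed, 8 in DESeq2, and 2 to 12 without 1 library, with 12 without germ line yki RNAi mid replicate 4, 7 without somatic hpo RNAi mid replicate 1 and 5 without somatic yki RNAi mid replicate 3. Over all genes tested the same test gave 1271 calls with the stricter filter, 1263 with the length trend removed and 1468 in DESeq2. Without 1 library it gave 976 to 1303. The cause of these shifts was not tested.

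For hpo RNAi over yki RNAi the early soma gave 3 calls in DESeq2 and 0 with only the compared libraries. Without 1 library it gave 0 to 6 (6 without hpo RNAi replicate 4). Over all genes tested these counts were 751, 76 and 141 to 402. With the length trend removed the mid soma gave 1, where 284 of all genes were called. The late soma gave 1 in DESeq2 and 3 with only the compared libraries, against 194 and 641 over all genes. Late in the germ line 2 were called without a filter and 2 in DESeq2, against 56 and 100 over all genes. Leaving out 1 library gave 0 calls in the mid and late soma and in both germ line stages. Over all genes it gave 166 to 253 calls in the mid soma and 45 to 71 in the late soma. In the mid and late germ line it gave 4 to 15 and 4 to 8. Mid over early in the soma gave 1 without a filter, 1 in DESeq2 and 0 to 2 without 1 library, against 433, 768 and 226 to 481 over all genes. The RNAi by stage test gave 0 to 2 without 1 library (2 without early somatic hpo RNAi replicate 4), and RNAi by cell type gave 1 in DESeq2. Over all genes, RNAi by stage gave at least 36 calls in each fit without 1 library. It gave the most in the same fit that gave 2 respiratory chain calls. RNAi by cell type gave 200 over all genes in DESeq2.

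With the replicate block the counts were 3 for the early somatic RNAi contrast, 2 for mid over early and 50 for late over mid in the soma. They were 53 and 34 for soma over germ line at the mid and late stage, 1 for RNAi by stage and 11 for cell type by stage. Over all genes tested the counts were 244, 245, 2877, 6267, 6207, 71 and 1332 in the same order. Within a cell type and stage, correlations of same-numbered deviations ran from -0.08 to 0.23. Over all groups the 4 libraries numbered 4 deviated together (r of 0.14 to 0.40 over their 6 pairs, against a median of -0.01 between different numbers). Each had the highest short-gene share of its group, 10.4% in the early soma with hpo RNAi, 9.35% and 8.48% in the mid and late germ line with hpo RNAi and 9.95% in the mid germ line with yki RNAi. With the block the subunit median, hpo RNAi over yki RNAi, was 0.09 in the late germ line and -0.48 in the early soma. The part of these libraries in the results was not tested beyond leaving each out. Stability was counted for genes named for the size of a called change or for a called interaction. For these, 340 alternatives kept the direction and side of the threshold, 26 lost the call, and none changed sign. Genes named only as paralog-type genes or as core subunits, ND-51L2 among them, are outside this count. Low counts limit the paralog-type genes.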
